A study of Mus musculus with 4 samples.

Results

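The 10 genes described here encode UDP-glycosyltransferases of mouse liver: Ugt2a3, Ugt2b1, Ugt2b5, Ugt2b34, Ugt2b35, Ugt2b36, Ugt2b37, Ugt2b38, Ugt3a1 and Ugt3a2. They were taken by name from 22849 gene symbols in a table of liver RNA levels, using rows that name a single gene and adding up the 2 rows of Ugt2a3. The livers came from male mice of the inbred strain C57BL/6 on a high fat diet (60% fat) for 12 weeks. The vehicle group ate this diet alone, and the UAB126 group ate it with 1.2 g of UAB126 per kg of diet, so both groups carry the effect of the high fat diet. UAB126 is a compound known here only by its code. Each group has 2 libraries, numbered 1 and 2. Nothing in the labels ties them to separate animals, so p-values measure the spread between these 4 libraries, which may be partly technical.

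UDP-glucuronosyltransferases sit in the membrane of the endoplasmic reticulum and join a sugar acid, glucuronic acid, to small fat-soluble molecules, which makes them soluble enough to leave in bile or urine. Their substrates in liver include steroid hormones, bile acids, bilirubin, fatty acids and many drugs. The Ugt2 enzymes draw on UDP-glucuronic acid, whereas the Ugt3a enzymes are known for using other UDP-sugars. In mice, several liver glucuronosyltransferases differ between the sexes, a pattern that growth hormone sets for many liver genes through the transcription factor STAT5.

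Levels are FPKM, the number of sequenced fragments scaled to transcript length and library size, so they can be compared between genes. Differences are UAB126 minus vehicle on the log2(FPKM + 1) scale, which understates the change of low genes, and ± is the standard error (SE) of limma, a linear model that steadies each gene's spread with that of other genes (n = 2 per group). The threshold was a Benjamini-Hochberg adjusted p under 0.05 over 10786 tested symbols, those whose mean reached 1 FPKM, which all 10 genes did. Of all tested symbols, 15 passed. The deposited values fall on steps worth 1 fragment, from which the depth relative to the deepest library, UAB126 1, was estimated at 0.696 for vehicle 1, 0.405 for vehicle 2 and 0.708 for UAB126 2. Fragment numbers given below rest on this estimate.

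None of the 10 genes passed the threshold (limma, adjusted p), against 0.139% of all tested genes (0.0464% higher and 0.0927% lower). An unadjusted p under 0.05 was found for 3 of them (Ugt2b38, Ugt2b1 and Ugt2a3), all lower with UAB126, and for 13.4% of tested genes (8.38% lower and 5.03% higher). Both UAB126 libraries lay below both vehicle libraries in 5 of the 10 genes, against 26.9% of tested genes, and above them in 0, against 22.7%. The 5 genes are Ugt2b38, Ugt2b1, Ugt2a3, Ugt2b36 and Ugt2b37, and the remaining 5 overlapped between groups. The median difference of the 10 genes was -0.18, beside -0.03 for all tested genes. It shrank to -0.03 with quantile normalization, where the median of all tested genes was 0.04.

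Ugt2b36 was highest in all 4 libraries, with a mean of 549 FPKM in vehicle, and Ugt2b35, Ugt3a1, Ugt2b38 and Ugt2b37 were the lowest 4 in all of them. In vehicle, Ugt2b1 (338 FPKM) and Ugt2b5 (335 FPKM) followed Ugt2b36. Their ranges in vehicle overlapped, so this order between them is not resolved. Next came Ugt3a2 (261 FPKM) and Ugt2a3 (224 FPKM), whose vehicle values also overlapped, then Ugt2b34 (134 FPKM), Ugt2b35 (40.1 FPKM), Ugt3a1 (12.7 FPKM), Ugt2b38 (7.0 FPKM) and Ugt2b37 (1.52 FPKM). With UAB126, Ugt2b1 ranked 4 rather than 2, and Ugt2b38 came down to the level of Ugt2b37 (1.22 and 1.16 FPKM).

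**Figure D1:**
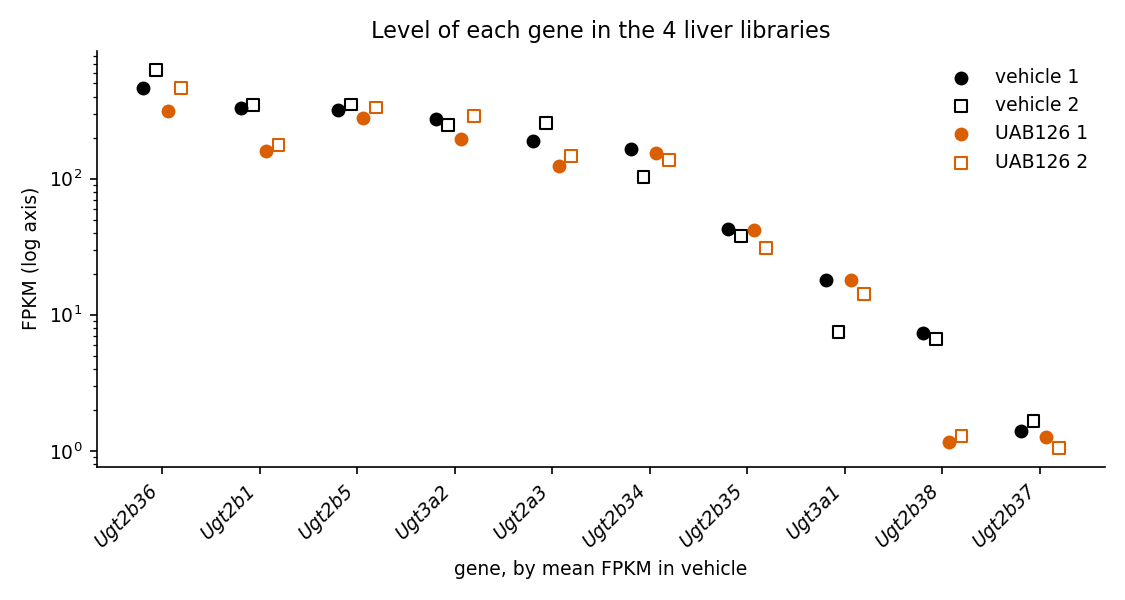
FPKM (log axis) of the 10 genes, ordered by their vehicle mean, with 1 point per library (black, vehicle; orange, UAB126; filled circles, library 1; open squares, library 2). Both UAB126 points of Ugt2b38 sit near 1 FPKM, far below the vehicle points at 7.38 and 6.62 FPKM, and those of Ugt2b1 lie below its vehicle points, while most other genes show groups that touch or overlap.

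Ugt2b38 (chromosome 5, 87409942 to 87424203, minus strand, GENCODE M21 on GRCm38, the assembly also called mm10) had the largest difference of the 10 genes. It was at 7.38 and 6.62 FPKM in vehicle libraries 1 and 2 and at 1.15 and 1.29 FPKM in UAB126 libraries 1 and 2. The groups were far apart, and within each group the higher library exceeded the lower by only 1.12 times. The vehicle mean was 5.73 times the UAB126 mean, and the difference was -1.85 ± 0.19. The unadjusted p was 1.2e-04, which placed the gene 23rd of 10786, and the adjusted p of 0.0563 missed the threshold (limma). These values stand for about 206 and 107 fragments in vehicle and about 46 and 37 with UAB126, for which counting alone gives relative errors of 6.97%, 9.67%, 14.7% and 16.4%. The adjusted p was 0.0281 without vehicle 2 and 0.00924 without vehicle 1, but 0.471 without UAB126 1 and 0.533 without UAB126 2, while the difference stayed between -1.92 and -1.78. It was 0.0405 with the replicate number as a block, 0.0429 with a pseudocount of 0.1 and 0.0438 without symbols listed at 0 in 1 library and above 20 FPKM in another. Over all alternatives in which the gene was tested, the adjusted p ran from 0.00924 to 0.533.

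The value of Ugt2b38 depends on telling its RNA from that of close copies. Its coding part is 97.0% identical to that of Ugt2b5 (47 of 1593 bases differ) and 94.1% to that of Ugt2b37 (94 differ). Reads were 75 bases long. Of the 75-base windows of its transcript, 28.0% also occur in another gene, nearly all in Ugt2b5, whose level was far higher. Fragments were read from both ends, so this share holds for single reads, and that of whole fragments was not computed. How the authors' software placed shared fragments is not stated in the labels, so the single values of these genes are uncertain. The stretch of 75 coding bases in which Ugt2b38 and Ugt2b5 differ most lies in the last exon, exon 6 (coding bases 1452 to 1526; Ugt2b38 at chr5:87410275-87410349, Ugt2b5 at chr5:87125280-87125354, Ugt2b37 at chr5:87240827-87240901, all on the minus strand of GRCm38). It is shown to let a reader see what a fragment has to separate them, with capitals at the 10 bases where Ugt2b38 and Ugt2b5 differ from each other and, in Ugt2b37, at the 5 where it differs from Ugt2b5.
Ugt2b38: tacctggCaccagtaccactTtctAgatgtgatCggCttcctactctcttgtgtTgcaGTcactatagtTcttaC
Ugt2b5: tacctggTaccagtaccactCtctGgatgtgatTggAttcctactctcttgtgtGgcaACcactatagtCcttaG
Ugt2b37: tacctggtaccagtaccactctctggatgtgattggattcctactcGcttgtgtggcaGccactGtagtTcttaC

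Ugt2b5 and Ugt2b37 give the comparison inside this trio of near copies. Ugt2b5 (chromosome 5, 87124960 to 87140318) was at 319 and 351 FPKM in the vehicle libraries and at 280 and 333 FPKM in the UAB126 libraries. The groups overlapped, and the difference of -0.13 ± 0.24 (limma adjusted p = 0.817) turned to 0.21 with quantile normalization and 0.03 with the trend on transcript length removed. Ugt2b37 (chromosome 5, 87240493 to 87254804) was at 1.40 and 1.65 FPKM in the vehicle libraries and at 1.26 and 1.06 FPKM in the UAB126 libraries. Both UAB126 libraries were lower, by little: the difference was -0.23 ± 0.22 (limma adjusted p = 0.642), on about 27 to 51 fragments per library. Within a library, the ratio of Ugt2b38 to Ugt2b37 was 5.29 and 4.0 in vehicle and 0.914 and 1.22 with UAB126, and that of Ugt2b38 to Ugt2b5 was 0.0232 and 0.0189 against 0.00412 and 0.00388. These ratios, which do not depend on how the libraries were scaled, separated the groups, and they were not tested. The sum of the trio, which depends little on how fragments were divided among them, was 327 and 359 FPKM in the vehicle libraries and 282 and 336 FPKM in the UAB126 libraries, with overlapping groups, and Ugt2b5 made up nearly all of it. In addition, 8 rows without a gene name lie in the deposited locus of Ugt2b38. Their levels added up to 61.6 and 26.9 FPKM in the vehicle libraries and 21.3 and 18.4 FPKM in the UAB126 libraries. Both UAB126 sums were below both vehicle sums, but vehicle 2 was closer to the UAB126 libraries than to vehicle 1. What these rows hold, and whether they belong to Ugt2b38 or to another gene, is not stated.

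**Figure D2:**
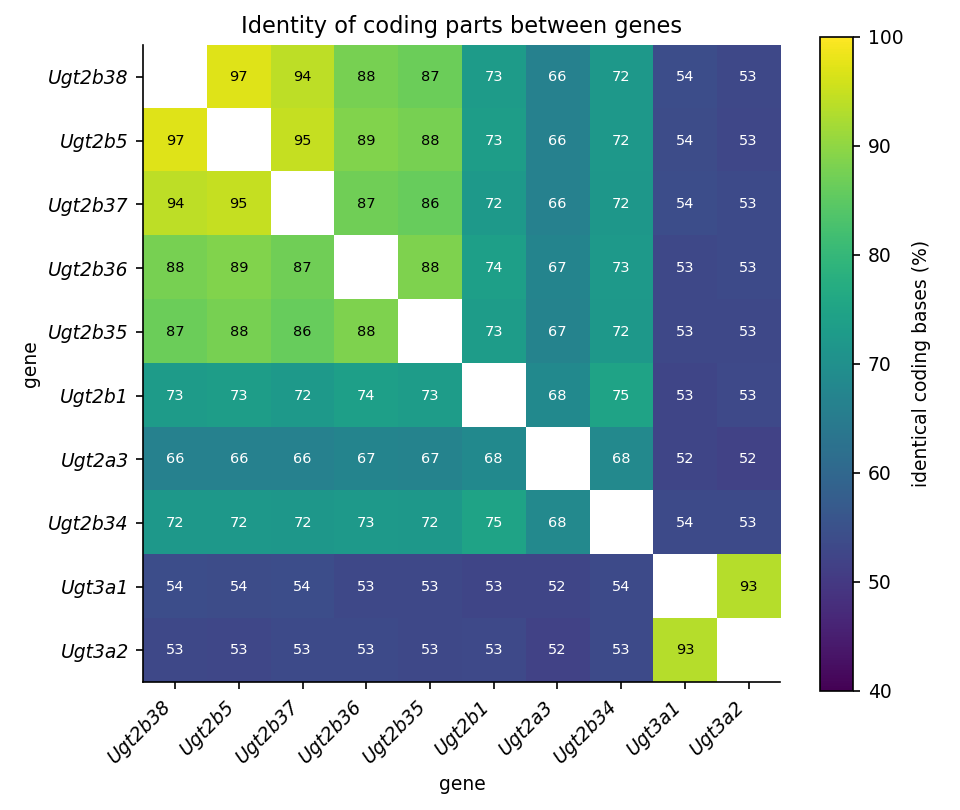
Share of identical bases between the coding parts of each pair of genes, in percent (colour and number), from the GENCODE M21 transcript with the longest coding part of each gene. Ugt2b38, Ugt2b5 and Ugt2b37 form the closest group with 94.1% to 97.0%, Ugt3a1 and Ugt3a2 share 93.3%, and Ugt2b1 is no closer than 74.7% to any other gene.

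The near copies also have similar promoters. Promoter windows of RefSeq (build GRCm38.p6) held 9 of the 10 genes. Over the 250 bases before the start, Ugt2b38 was 85.2% identical to Ugt2b37 and 81.5% to Ugt2b5, Ugt2b5 and Ugt2b37 shared 72.6%, and no other pair of the 9 genes shared more than 59.3%. They are shown because they are alike while the differences of their genes were -1.85, -0.23 and -0.13. Each is written 5′ to 3′ on the minus strand of chromosome 5 (Ugt2b38 at chr5:87424204-87424453, Ugt2b37 at chr5:87254789-87255038, Ugt2b5 at chr5:87140341-87140590), and capitals mark the run of 62 bases that all 3 hold unbroken.
Ugt2b38: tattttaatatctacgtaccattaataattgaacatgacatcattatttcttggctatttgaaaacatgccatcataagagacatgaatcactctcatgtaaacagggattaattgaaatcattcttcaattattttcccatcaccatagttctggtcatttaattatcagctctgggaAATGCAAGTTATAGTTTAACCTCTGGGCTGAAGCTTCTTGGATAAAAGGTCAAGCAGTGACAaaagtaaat
Ugt2b37: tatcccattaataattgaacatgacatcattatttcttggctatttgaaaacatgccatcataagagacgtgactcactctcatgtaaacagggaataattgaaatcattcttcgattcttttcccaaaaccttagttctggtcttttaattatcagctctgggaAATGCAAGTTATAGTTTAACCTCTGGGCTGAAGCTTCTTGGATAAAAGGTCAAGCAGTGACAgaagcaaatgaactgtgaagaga
Ugt2b5: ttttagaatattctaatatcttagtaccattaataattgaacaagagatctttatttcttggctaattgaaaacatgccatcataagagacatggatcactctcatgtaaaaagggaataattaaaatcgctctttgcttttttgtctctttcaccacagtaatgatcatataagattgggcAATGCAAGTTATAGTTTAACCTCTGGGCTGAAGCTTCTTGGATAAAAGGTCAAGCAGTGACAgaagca

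The capital run holds AGGTCA, the core element that many nuclear receptors bind. In windows of 300 bases (250 before to 50 after the start, both strands), AGGTCA occurred in 5 of the 9 genes (Ugt2b5, Ugt2b35, Ugt2b36, Ugt2b37 and Ugt2b38) and in 16.3% of 32851 RefSeq promoters. In Ugt2b5, Ugt2b36, Ugt2b37 and Ugt2b38 it stood at -22, -25, -39 and -25 from the start, with the same bases on both sides of it. These matches in similar promoters are not independent, so the count cannot be weighed against that share. In Ugt2b35 it stood at -215. The HNF1 core GTTAAT, named for a liver factor known to drive Ugt2b genes, occurred in Ugt2a3 and Ugt3a1 and in 7.10% of all promoters. In Ugt2a3 it stood at positions -54 and -47 from the start, with a single base between the copies. The glucocorticoid receptor core AGAACA was found in 2 of the 9 (19.0% of all) and TATAAA in 1 (13.6%). TTCNNNGAA for STAT factors (8.30% of all), TTGCGCAA for C/EBP factors (0.183%) and GCGTG for the aryl hydrocarbon receptor (32.4%) were found in 0. No match overlapped a match of another motif. A match is a run of letters, and no match says only that these letters are not in the window.

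The promoter of Ugt2a3 (chr5:87337196-87337445, minus strand) is shown for its pair of HNF1 cores, in capitals.
Ugt2a3: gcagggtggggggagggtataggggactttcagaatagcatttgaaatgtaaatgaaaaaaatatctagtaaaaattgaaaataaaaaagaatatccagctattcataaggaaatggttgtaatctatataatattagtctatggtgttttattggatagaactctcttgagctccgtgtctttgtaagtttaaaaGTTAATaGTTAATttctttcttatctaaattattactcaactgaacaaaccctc

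Ugt2b1 was the abundant gene with the largest difference. Ugt2b1 (chromosome 5, 86916638 to 86926530) was at 327 and 349 FPKM in the vehicle libraries and at 160 and 176 FPKM in the UAB126 libraries. Each group was tight, with the higher library 1.06 and 1.10 times the lower, and the groups did not overlap. The vehicle mean was 2.01 times the UAB126 mean, and 6.10% of tested genes had a UAB126 mean at or below 0.5 times the vehicle mean. The difference was -1.01 ± 0.22 (unadjusted p = 0.00538, limma adjusted p = 0.234). Its sign held in 16 alternatives, from -1.07 to -0.65, with the smallest size under quantile normalization, but turned (0.65) with libraries scaled to equal total FPKM, described with the sums of the genes. The adjusted p stayed above the threshold in all of these (lowest 0.0582, with the replicate number as a block). No 75-base window of the Ugt2b1 transcript occurs in another annotated transcript, so its value does not share reads of this length with the other genes. In each library the ratio of Ugt2b1 to Ugt2b5 gave 1.03 and 0.994 in vehicle and 0.572 and 0.528 with UAB126.

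Ugt2a3, whose human counterpart conjugates bile acids, came next. Ugt2a3 (chromosome 5, 87324972 to 87337195) was at 189 and 258 FPKM in the vehicle libraries and at 123 and 147 FPKM in the UAB126 libraries. Both UAB126 libraries were below both vehicle libraries, and the difference was -0.71 ± 0.26 (unadjusted p = 0.0390, limma adjusted p = 0.346). Its 2 rows in the table leaned the same way. The first was at 68.5 and 97.1 FPKM in vehicle against 33.0 and 43.5 FPKM with UAB126, and the second at 121 and 161 against 90.0 and 104 FPKM. The ratio of means was 0.461 in the first and 0.688 in the second. The difference ranged from -0.93 to -0.34 over 16 alternatives, the smallest again with quantile normalization, and turned to 0.94 with libraries scaled to equal total FPKM.

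Ugt2b36, the most abundant of the genes (chromosome 5, 87065927 to 87092555), was at 466 and 632 FPKM in the vehicle libraries and at 311 and 466 FPKM in the UAB126 libraries. The groups only touched: UAB126 2 was at 465.63 FPKM and vehicle 1 at 465.69 FPKM. The difference of -0.51 ± 0.32 did not pass (limma adjusted p = 0.494) and shrank to -0.08 with quantile normalization. Ugt2b34 (chromosome 5, 86889767 to 86906937) was at 165 and 103 FPKM in the vehicle libraries and at 154 and 137 FPKM in the UAB126 libraries. Vehicle libraries enclosed both UAB126 libraries, and the difference of 0.15 ± 0.30 turned to -0.19 without vehicle 2. Ugt2b35, the only gene of the cluster on the plus strand (chromosome 5, 87000860 to 87013275), was at 42.3 and 37.8 FPKM in the vehicle libraries and at 42.1 and 31.1 FPKM in the UAB126 libraries. Its difference was -0.14 ± 0.23, and it turned to 0.02 with quantile normalization and 0.07 without UAB126 2. For Ugt2b34 and Ugt2b35 the difference was smaller than its own SE.

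The Ugt3a pair lies on chromosome 15. The human counterpart of Ugt3a1 uses UDP-N-acetylglucosamine and that of Ugt3a2 uses UDP-glucose and UDP-xylose. Ugt3a2 (9335550 to 9370955, plus strand) was at 276 and 247 FPKM in the vehicle libraries and at 195 and 287 FPKM in the UAB126 libraries. The UAB126 libraries lay on either side of the vehicle libraries, with a difference of -0.14 ± 0.28 (limma adjusted p = 0.835) that turned to 0.19 with quantile normalization and 0.14 without UAB126 1. Ugt3a1 (9276888 to 9315032, plus strand) was at 18.0 and 7.43 FPKM in the vehicle libraries and at 18.0 and 14.2 FPKM in the UAB126 libraries. Vehicle 2 was the one that stood apart, and vehicle 1 exceeded it by 2.43 times. Vehicle 2 had about 145 fragments, for which counting alone gives a relative error of 8.30%. The reason for its low value was not tested. The difference of 0.42 ± 0.41 (limma adjusted p = 0.637) was 1.01 without vehicle 1 and turned to -0.17 without vehicle 2. Across the 4 libraries Ugt3a2 exceeded Ugt3a1 by 10.9 to 33.3 times. The pair shares 1.57% of the 75-base windows of Ugt3a1, so the lower gene shares few reads of this length with the higher.

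**Figure D3:**
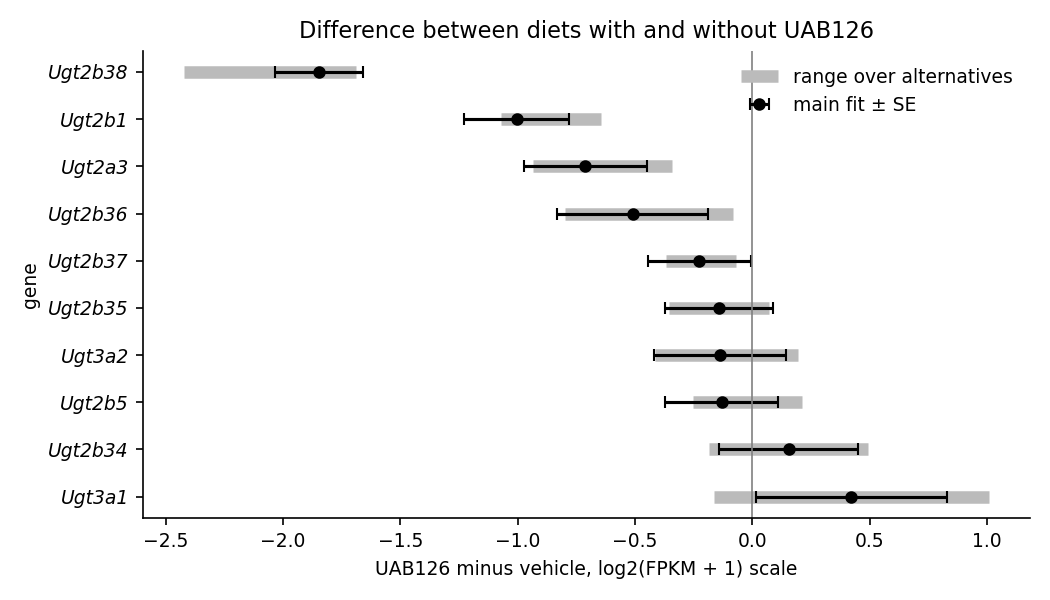
Difference UAB126 minus vehicle on the log2(FPKM + 1) scale for each gene (points, with limma's SE as bars) and the range over the alternatives other than equal total FPKM (grey bars). Ugt2b38 (-1.85) and Ugt2b1 (-1.01) stay below 0 over the whole grey range, as do Ugt2a3, Ugt2b36 and Ugt2b37, whereas those of Ugt2b35, Ugt3a2, Ugt2b5, Ugt2b34 and Ugt3a1 cross 0.

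Added up, the 10 genes reached 1811 and 1992 FPKM in the vehicle libraries and 1286 and 1594 FPKM in the UAB126 libraries, so both UAB126 libraries were lower and the ratio of means was 0.757. The total FPKM of the whole table also differed between groups, at 5698921 and 11756079 in the vehicle libraries and 2464336 and 2891356 in the UAB126 libraries. The 5 tested symbols with the highest means held much of this total. They held 69.7% and 74.4% of it in the vehicle libraries and 52.9% and 51.1% in the UAB126 libraries. As a share of this total, the 10 genes came to 0.0318% and 0.0169% in the vehicle libraries and 0.0522% and 0.0551% in the UAB126 libraries, so on this scale their sum was higher with UAB126. Scaling the libraries to equal totals, an alternative chosen after seeing the data, moved the median difference of all tested genes from -0.03 to 1.36 and that of the 10 genes from -0.18 to 1.31. On that scale Ugt2b38 was at -0.66 and Ugt2b1 and Ugt2a3 turned to 0.65 and 0.94, all below the median of all tested genes, while Ugt2b5 (1.53), Ugt2b34 (1.80), Ugt2b35 (1.47), Ugt3a1 (1.92) and Ugt3a2 (1.51) lay above it. The 8 Ugt2 genes had a ratio of 0.727 and the 2 Ugt3a genes one of 0.939. The shares of single genes in this sum were compared within each library. Ugt2b1 held 18.1% and 17.5% of the sum in vehicle and 12.5% and 11.03% with UAB126. Ugt2b5 held 17.6% and 17.6% in vehicle and 21.8% and 20.9% with UAB126. The share of Ugt2b36 overlapped between groups (25.7% and 31.7% in vehicle, 24.2% and 29.2% with UAB126).

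The Ugt1a genes, which share their last exons and include the bilirubin enzyme Ugt1a1, appear in the table only in a joint row of 9 names with the neighbouring Mroh2a. This row was at 859 and 637 FPKM in the vehicle libraries and at 624 and 937 FPKM in the UAB126 libraries, with overlapping groups and a difference of 0.05 ± 0.33 (limma adjusted p = 0.956). It cannot be divided among its genes. A joint row of Ugt2a1 and Ugt2a2 and that of Ugt8a, a galactosyltransferase gene of myelin, stayed under 0.2 FPKM in all libraries and were not tested.

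Along chromosome 5 the 8 Ugt2 genes did not line up by their differences. Ugt2b1, with the second largest, has Ugt2b34 and Ugt2b35 as neighbours among the 8, and both of these overlapped between groups. Ugt2b38 and Ugt2a3, at the far end, are next to each other. The nearest tested genes outside were also read, leaving aside rows that name several genes. Sult1b1, a sulfotransferase gene 77940 bases beyond the Ugt2b38 end of the cluster as the deposited loci bound it, was at 21.5 and 20.5 FPKM in the vehicle libraries and at 6.50 and 8.15 FPKM in the UAB126 libraries (difference -1.41 ± 0.19, limma adjusted p = 0.108), whereas the next gene, Sult1d1, overlapped between groups (0.24 ± 0.26). On the other side, Ythdc1, whose deposited locus overlaps the cluster, differed by -0.19 ± 0.18. Stap1, 541907 bases from the cluster as the deposited loci bound it, differed by -1.93 ± 0.29 (limma adjusted p = 0.129). Noa1, the next tested gene with a row of its own and 9238575 bases away, differed by 0.38 ± 0.20. Around the Ugt3a pair the differences were 0.26 ± 0.28 for Nadkd1, 0.35 ± 0.21 for Lmbrd2, 0.51 ± 0.19 for Prlr and -0.56 ± 0.22 for Agxt2, and none of these neighbours passed the threshold.

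**Figure D4:**
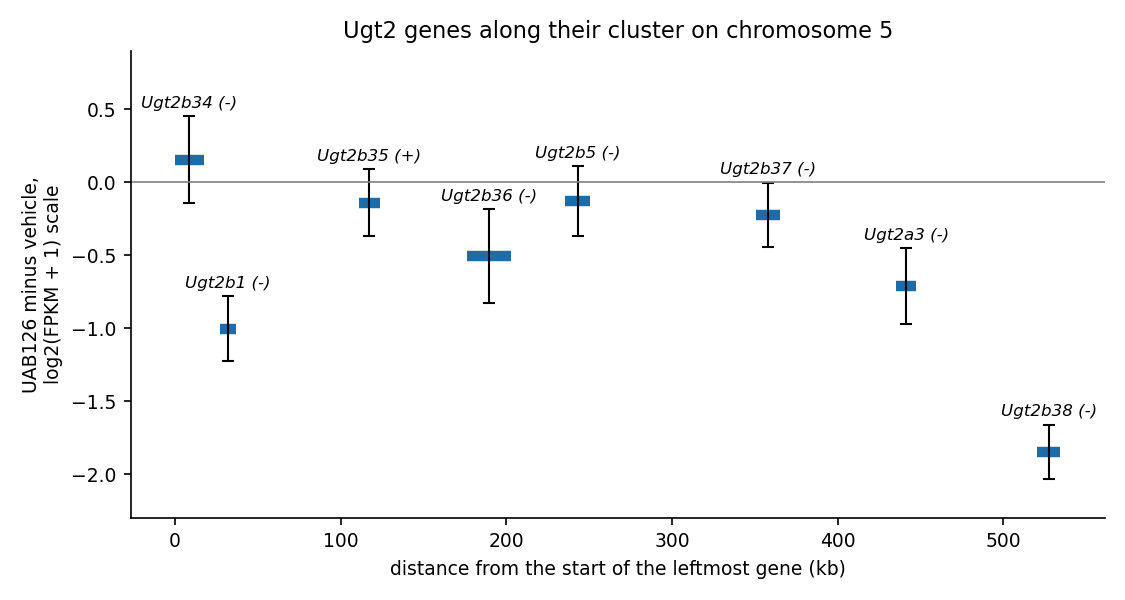
The 8 Ugt2 genes along chromosome 5, as distance in kb from the start of the leftmost gene (blue bars, gene bodies; sign in brackets, strand), against their difference UAB126 minus vehicle on the log2(FPKM + 1) scale (error bars, limma's SE). Ugt2b1 at -1.01 stands between genes near 0, and Ugt2b38 at -1.85 closes the cluster on the right.

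The supply of UDP-glucuronic acid, its transport and the cleavage of glucuronides were read from 15 genes. All were tested and 0 passed the threshold (limma, adjusted p). At an unadjusted p under 0.05, 1 was higher and 4 lower, and the median difference was -0.12. Over all tested genes, 13.4% had such a p (5.03% higher and 8.38% lower), and the median was -0.03. Rgn, whose product regucalcin works downstream of glucuronic acid in vitamin C synthesis, was at 1315 and 1493 FPKM in the vehicle libraries and at 553 and 628 FPKM in the UAB126 libraries (difference -1.25 ± 0.26). Slc35d2, a nucleotide sugar transporter gene, was at 26.2 and 28.9 against 15.3 and 14.8 FPKM. Pgm1, a phosphoglucomutase gene, was at 1.84 and 1.87 against 4.25 and 3.0 FPKM. Pgm2, the other phosphoglucomutase gene of this list, was far more abundant and went the other way. It was at 366 and 377 FPKM in the vehicle libraries and at 233 and 269 FPKM in the UAB126 libraries, and it was added after its values were seen. Ugdh, whose enzyme makes UDP-glucuronic acid and which was picked for this role after its values were seen, was at 57.0 and 49.1 FPKM in the vehicle libraries and at 59.6 and 73.2 FPKM in the UAB126 libraries, with both UAB126 libraries higher. Of 16 transporter genes for glucuronides and drugs, 12 were tested, 0 passed and 1 had an unadjusted p under 0.05, with a median of -0.16. Slc47a1, a drug exporter gene, was at 136 and 105 against 64.8 and 69.8 FPKM. Abcc3, which exports glucuronides towards blood, was at 53.8 and 27.6 against 20.4 and 24.6 FPKM, and Abcc4 at 0.742 and 0.737 against 1.35 and 1.48 FPKM. Abcc4 reached the filter only through its UAB126 libraries.

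Of 27 transcription factors and receptors of drug metabolism, 24 were tested, 0 passed and 3 had an unadjusted p under 0.05, all higher (median 0.06). Over all tested genes, 13.4% had such a p (5.03% higher and 8.38% lower). Ahr, the receptor for dioxin-like ligands and a known inducer of Ugt1a genes, was at 3.99 and 3.40 FPKM in the vehicle libraries and at 9.85 and 7.87 FPKM in the UAB126 libraries (difference 1.07 ± 0.20, limma adjusted p = 0.191). Stat5b was at 11.8 and 12.9 against 17.2 and 18.3 FPKM and Stat5a at 5.78 and 4.37 against 7.98 and 7.61 FPKM. Among 24 enzymes that xenobiotic receptors induce, 17 were tested, 0 passed, and at an unadjusted p under 0.05 there were 3 higher and 1 lower (median 0.38). Cyp2b10, the marker enzyme of the receptor CAR, was at 1.40 and 3.03 FPKM in the vehicle libraries and at 12.2 and 48.9 FPKM in the UAB126 libraries, Gstm3 at 17.5 and 13.9 against 46.6 and 35.6 FPKM, and Ces2a at 99.1 and 117 against 49.9 and 63.3 FPKM.

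A list of 20 genes with higher levels in male than female liver, which holds none of the 10 genes and was written with earlier results of these libraries known, leaned lower. Of 18 tested, 1 fell past the threshold (limma, adjusted p) and 10 were lower and 1 higher at an unadjusted p under 0.05, with a median of -0.87. Both UAB126 libraries were below both vehicle libraries in 11. Over all tested genes these shares were 8.38% lower and 5.03% higher at this p, and 26.9% below. The one that fell was Serpina12, for the secreted protein vaspin (39.5 and 52.5 FPKM against 3.38 and 1.49 FPKM, limma adjusted p = 0.0381). This call was lost with no filter on low values (limma adjusted p = 0.249), with rows without a symbol kept (0.25) and with one prior spread for all genes (0.0508). It was also lost when either UAB126 library was left out (difference -4.22 without UAB126 1 and -3.41 without UAB126 2). The difference stayed between -4.28 and -3.41 over the alternatives other than equal total FPKM, where it was -2.39. Mup20, a major urinary protein gene with near-identical copies, was at 12019 and 18994 FPKM in the vehicle libraries and at 3023 and 1374 FPKM in the UAB126 libraries, Obp2a at 10.7 and 23.5 against 0.406 and 0.115 FPKM, and Socs2, an inhibitor that growth hormone induces, at 5.44 and 6.91 against 1.58 and 1.83 FPKM. Of 22 genes with higher levels in female liver, a list chosen in the same way, 6 were tested and 0 passed (limma, adjusted p). In all 6 the UAB126 values exceeded the vehicle values, 5 were higher at an unadjusted p under 0.05, and the median was 2.19. Over all tested genes, 22.7% were above in both UAB126 libraries and the median was -0.03. The listed genes not tested had a mean under 1 FPKM or no row under their own name, so the 6 are a filtered part. Cyp2b10, given above, is among the 6. Abcd2 was at 2.04 and 1.69 against 4.93 and 5.85 FPKM, and Cyp2b9 at 1.75 and 0.736 against 6.23 and 21.9 FPKM.

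**Figure D5:**
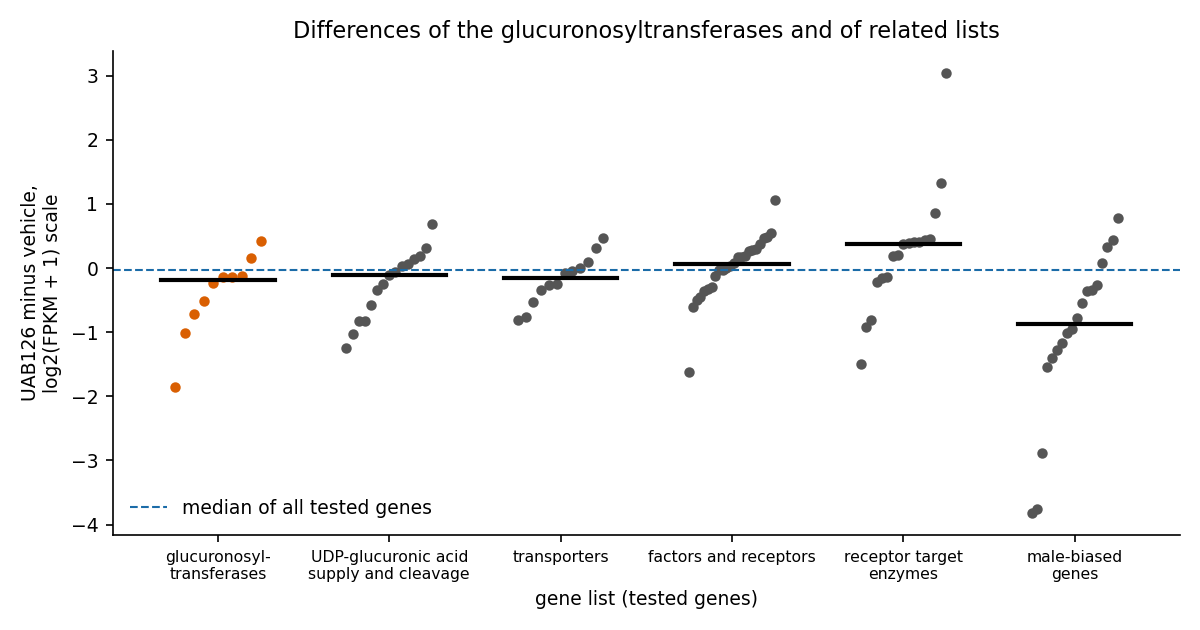
Difference UAB126 minus vehicle on the log2(FPKM + 1) scale for each tested gene of 6 lists (points, sorted within a list; black lines, medians; dashed line, median of all 10786 tested genes at -0.03). The 10 glucuronosyltransferase genes (orange) have a median of -0.18 and reach down to -1.85, and the male-biased list has the lowest median at -0.87.

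Liver consists mostly of hepatocytes, the main site of these enzymes, and in bulk tissue fewer cells of a type and less RNA per cell cannot be told apart. Of 15 hepatocyte markers, 12 were in the table as single rows. Alb, the albumin gene, is listed at 0 in all libraries but vehicle 2. Without Alb, the summed level of the others was 81968 and 119730 FPKM in the vehicle libraries and 43621 and 62679 FPKM in the UAB126 libraries. Of the 12, 0 passed the threshold (limma, adjusted p), 4 were lower and 0 higher at an unadjusted p under 0.05, and the median difference was -0.80. The median and the counts include Alb, whose difference was -7.49. Both UAB126 libraries were below both vehicle libraries in 8 of the 12 and above them in 1, and 3 overlapped. Over all tested genes, 26.9% were below and 22.7% above, and 8.38% were lower and 5.03% higher at this p. The part of these lower levels in the differences of Ugt2b38, Ugt2b1 and Ugt2a3 was not tested.

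Kupffer cell markers (8 of 9 in the table) summed to 103 and 311 FPKM in the vehicle libraries and 223 and 284 FPKM in the UAB126 libraries. Those of stellate cells (8 of 9) summed to 141 and 179 against 161 and 153 FPKM, those of sinusoidal endothelium (7 of 8) to 89.3 and 144 against 141 and 162 FPKM, and those of lymphocytes and neutrophils (9 of 10) to 3.80 and 38.7 against 8.24 and 13.9 FPKM. These sums overlapped between groups. Gene by gene, all 8 tested Kupffer markers had differences above 0 (0.18 to 1.57, median 0.52), and in 2 of them the groups did not overlap. Of the 7 tested endothelial markers, 3 were above in both UAB126 libraries, 2 were higher at an unadjusted p under 0.05, and the median was 0.35. Over all tested genes, both UAB126 libraries were above in 22.7% and below in 26.9%. At this p, 5.03% of them were higher and 8.38% lower, and their median was -0.03. The 8 stellate markers had a median of 0.09, and 7 of them overlapped between groups. Cholangiocyte markers (8 of 8) summed to 81.2 and 68.3 against 66.0 and 65.7 FPKM, but 5 of the 6 tested overlapped between groups and 1 was lower in both UAB126 libraries (median -0.07). Erythroid markers (1 of 5, Alas2) were lower with UAB126, at 164 and 189 against 59.8 and 70.8 FPKM. Adipocyte markers (5 of 5) summed to 220 and 59.6 against 7.27 and 33.4 FPKM. A single gene carried this: of the 3 tested, 1 was lower in both UAB126 libraries (-3.63) and 2 overlapped, with a median of 0.13. Intestine markers (6 of 6, with Lct and Sis at 0 in all libraries) were at 257 and 269 against 55.8 and 86.9 FPKM, nearly all of it Fabp2, a fatty acid binding protein gene that liver also expresses. Kidney tubule markers (7 of 7) summed to under 1 FPKM except for 36.2 FPKM in UAB126 2. Only 1 of these 7 reached the filter (difference 2.54, with overlapping groups), and 6 are listed at 0 in at least 1 library. Pancreas markers (6 of 6, with Amy2a5 and Pnlip at 0 in all libraries) summed to at most 3.71 FPKM, with both UAB126 libraries higher. The part of the Kupffer, endothelial, cholangiocyte, erythroid, adipocyte, kidney tubule and Fabp2 levels in the differences of the 10 genes was not tested.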

How the data were processed

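Liver RNA was selected for polyadenylated transcripts and sequenced from both ends, per the labels' protocols. Per the submitters' processing notes, the authors used STAR 2.5.1b, Trim Galore 0.4.1, Cuffdiff and Cufflinks 2.2.1 with build mm10, with annotation and settings not given in the sources used here. The authors deposited FPKM values, 1 column per library, in 27216 rows. Rows with no symbol (3634) were left out, rows of 1 symbol were summed, and 595 rows with several names were kept under the joint name. From these, log2(FPKM + 1) was fitted with limma 3.58.1 in R 4.3.3 (intensity trend, group as the only term, two-sided) over symbols whose mean reached 1 FPKM. The model was tested on simulated data. The fit has 5.35 degrees of freedom, 3.35 of them from other genes.

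Fragment numbers were estimated from single-transcript genes longer than 1500 bases, with 150 bases taken off each length. In the 4 libraries, 81.4% to 85.8% of 87 to 220 low values were whole within 0.1 fragment, against 20% for evenly spread values; the step was chosen to fit these values. Cuffdiff may rescale libraries, so the numbers are approximate, and intervals from them cover counting error only. Transcripts, coding parts and positions came from GENCODE M21, promoters from RefSeq. Identities were computed by global alignment with Biopython 1.88.

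Genes were named by a rule: the 10 genes, other Ugt rows of at least 1 FPKM, in each related list the calls and up to 3 genes of smallest p with separate groups, and the 2 nearest tested genes on each side of a cluster. Rows naming several genes were left out when neighbours were picked. The genes, lists and tests were chosen with earlier results of these data known. The alternatives tried were another pseudocount, filters, scalings, row handling, prior, left-out libraries a replicate block and, chosen after seeing the data, equal total FPKM. The level of 1 marker gene is not reported here.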

Additional observations from a re-analysis of the deposited data

How the results depend on the processing

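Of the 10 genes, 0 passed the threshold in the main setting. With a pseudocount of 0.1, without doubtful symbols (listed at 0 in 1 library and above 20 FPKM in another) and with the replicate block, 1 passed, Ugt2b38 each time, and leaving out a library gave 0 to 1. At a mean of at least 5 FPKM, Ugt2b38 and Ugt2b37 were not tested. The median difference of the 10 genes, -0.18, was -0.26 with a pseudocount of 0.1, -0.034 with quantile normalization and -0.11 with the length trend removed, and ran from -0.34 to -0.22 when a library was left out. Over all genes, 15 passed (5 higher, 10 lower). The count was 27 with a pseudocount of 0.1, 24 with quantile normalization (12 higher, 12 lower), 23 with libraries centred on their median, 0 with no filter on low values and 0 with rows without symbol kept. It ran from 0 to 442 when a library was left out: 442 without vehicle 1, 56 without vehicle 2, 14 without UAB126 1 and 0 without UAB126 2. With the length trend removed it was 22 (12 higher, 10 lower). Elsewhere, signs turned for Ugt2b5 (0.21 with quantile normalization, 0.033 with the length trend removed), Ugt2b35 (0.016) and Ugt3a2 (0.19), the last pair with quantile normalization. Leaving out a library gave -0.35 to 0.072 for Ugt2b35, -0.42 to 0.14 for Ugt3a2, -0.19 to 0.49 for Ugt2b34 and -0.17 to 1.01 for Ugt3a1. With libraries scaled to equal total FPKM, chosen after seeing the data, 8181 of 11042 tested genes passed (8089 higher, 92 lower). Of the 10 genes, 5 passed, all higher, and the median of the 10 was 1.31, beside 1.36 for all tested genes. That fit had 22084 degrees of freedom, against 5.35 in the main fit. A gene's own spread hardly entered it, so its calls cannot be set beside those of the other settings. There Ugt2a3 was at 0.94, Ugt2b1 at 0.65, Ugt2b5 at 1.53, Ugt2b35 at 1.47, Ugt2b36 at 1.15, Ugt2b37 at 0.71 and Ugt3a2 at 1.51, all with the sign turned, and Ugt2b38 at -0.66. The cause of these moves, including the part of the 5 symbols that held most of the total FPKM, was not tested.

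The libraries of the 2 groups share only the numbers 1 and 2. Across tested genes, the correlation of same-numbered deviations from the group means was 0.18. With the replicate block, 148 genes passed, among them Ugt2b38 (adjusted p = 0.0405), and the median of the 10 genes was the same. Depth limits Ugt2b37 and Ugt2b38 most, at about 27 to 206 fragments per library.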
